A study of Homo sapiens with 6 samples.

Results

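The 53 genes described here encode the heterogeneous nuclear ribonucleoproteins (hnRNPs), the serine/arginine-rich (SR) proteins and other regulators of pre-mRNA splicing. They were taken by name from a list of 25 hnRNP genes, 13 SR genes and 15 other regulators, and all 53 were found among the 63241 genes of the count table. The comparison asks whether the transcript levels of the splicing factors themselves differed when SHMT2 was silenced. The cells were HT-1376, an established human bladder carcinoma cell line, labelled WT in the control group and SHMT2 knockdown in the other. One group was transfected with siSHMT2, an siRNA against the mitochondrial serine hydroxymethyltransferase, and the other with siNC, a non-targeting siRNA, and both were collected 24 h after transfection. Each group had 3 libraries, prepared from bead-captured mRNA by a kit that keeps the strand. The study calls its replicates biological without saying whether they were separate cultures or transfections, so each p measures the spread between these libraries, whatever their source. A transient knockdown in a single cell line limits the comparison to that line and that time.

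hnRNPs coat nascent RNA and often repress the use of nearby exons, although several of them also enhance it. SR proteins bind exonic enhancers through RNA recognition motifs and recruit the spliceosome through their serine- and arginine-rich domains, and many of them shape their own transcript levels by including exons that send the transcript to nonsense-mediated decay. The other regulators include proteins that recognize the 3′ splice site and branch point (U2AF1, U2AF2, SF1, SF3B1), and factors that set tissue-specific exons, such as the epithelial splicing regulators ESRP1 and ESRP2.

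The libraries held between 533689 and 890574 counts, and 7207 genes passed the filter on low counts. These totals were a small part of the sequenced reads that the study reports per sample. SHMT2 (ENSG00000182199), the targeted gene, had 28, 15 and 20 counts in siNC replicates 1 to 3 and 9, 2 and 5 in siSHMT2 replicates 1 to 3, so the groups did not overlap. Its log2 fold change was -1.78 (SE 0.48), with an unadjusted p of 0.00056 in edgeR's quasi-likelihood test and a Benjamini-Hochberg adjusted p of 0.93. In a principal component analysis siSHMT2 replicate 1 stood apart on the first component (27.6% of the variance) and siNC replicate 2 on the second (22%). The 8 epithelial markers together held 494 to 549 of every 100000 counts. KRT8 (13773 counts over the 6 libraries) and KRT18 (5544) held the most of these, and they share exonic bases on opposite strands. The 8 markers of fibroblast, immune and endothelial cells held 0.937 to 2.36, with VIM, DCN, PTPRC and VWF at 0 in every library. COL1A2 had the most counts of that list, 62, close to the 72 of the epithelial marker EPCAM. The counts come from bulk RNA, in which fewer cells with a transcript and less of it per cell cannot be told apart.

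The splicing factors were among the better measured genes of these libraries. Of the 53 members, 50 passed the filter on low counts, and 49 had the 60 counts over the 6 libraries that were required for a fold change. The other 4 were HNRNPLL (36 counts), SRSF8 (58 counts), TIA1 (37 counts) and U2AF1 (21 counts). More than 1000 counts were found for 12 members. The median SE of the log2 fold change was 0.20 over the 49 members, against 0.31 over all genes tested.

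Levels are compared between genes in FPKM, which divides the count by the gene length and by the total of the library. The hnRNP genes had the highest levels as a list, with a median of 48 FPKM in siNC, against 17.7 for the SR genes, 9.95 for the other regulators and 9.4 for all genes tested. HNRNPU, which binds RNA and chromatin in the nuclear scaffold, led the hnRNP genes with 135 ± 6.03 FPKM (SD, n = 3) and held 17.5% of all counts of the members. HNRNPA2B1, an A/B-type hnRNP that also sorts RNA for transport, followed with 127 ± 9.05 FPKM. The ranges of these neighbours overlapped between the siNC replicates, whereas each siNC value of HNRNPA2B1 was above each of HNRNPC (98.8 ± 2.78 FPKM), the third in order. Between HNRNPC and HNRNPK (70.1 ± 8.25 FPKM), 8 genes that include both, neighbours in the order overlapped in their siNC values. HNRNPLL, the paralogue of HNRNPL best known from lymphocytes, was lowest with 1.71 ± 1.07 FPKM.

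SRSF9 had the highest level of all members, 351 ± 10.2 FPKM in siNC, and every siNC value lay above those of SRSF11 (104 ± 9.14 FPKM), which in turn lay above those of SRSF5 (41.2 ± 3.02 FPKM). Both SRSF9 and HNRNPU share exonic bases with opposite-strand genes whose summed counts exceed their own, as given below, so their ranks are uncertain. The SR protein SRSF1, a general splicing activator, had 17 ± 2.17 FPKM and SRSF8, a close relative of SRSF2, 3.55 ± 0.696 FPKM. The FPKM of SRSF9 rests on a listed length of 1704 bases, whereas the exons of GENCODE release 44 cover 3957 bases of the gene. Such gaps were also found for other members, such as HNRNPU (13084 against 22512), SRSF11 (4008 against 8473) and U2AF1 (4694 against 11095). The gap was small for HNRNPR (7751 against 8704) and absent for HNRNPA0. The order of levels between genes therefore depends on the annotation. It also depends on the strand setting of the counting, which is not given, so the ranks of the other members are uncertain too. Among the other regulators RBM25, a U1-associated activator, was highest with 70.1 ± 5.22 FPKM, followed by the branch point binding protein SF1 with 31 ± 5.9 FPKM and RBM39 with 26.7 ± 3.17 FPKM. U2AF1, the subunit that reads the AG dinucleotide of the 3′ splice site, was listed lowest with 1.02 ± 0.287 FPKM, and its partner U2AF2, which binds the polypyrimidine tract, had 25.2 ± 8.36 FPKM. RBFOX2 and TIA1, both known for binding introns near regulated exons, had 2.03 ± 0.264 and 1.61 ± 1.19 FPKM.

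**Figure D1:**
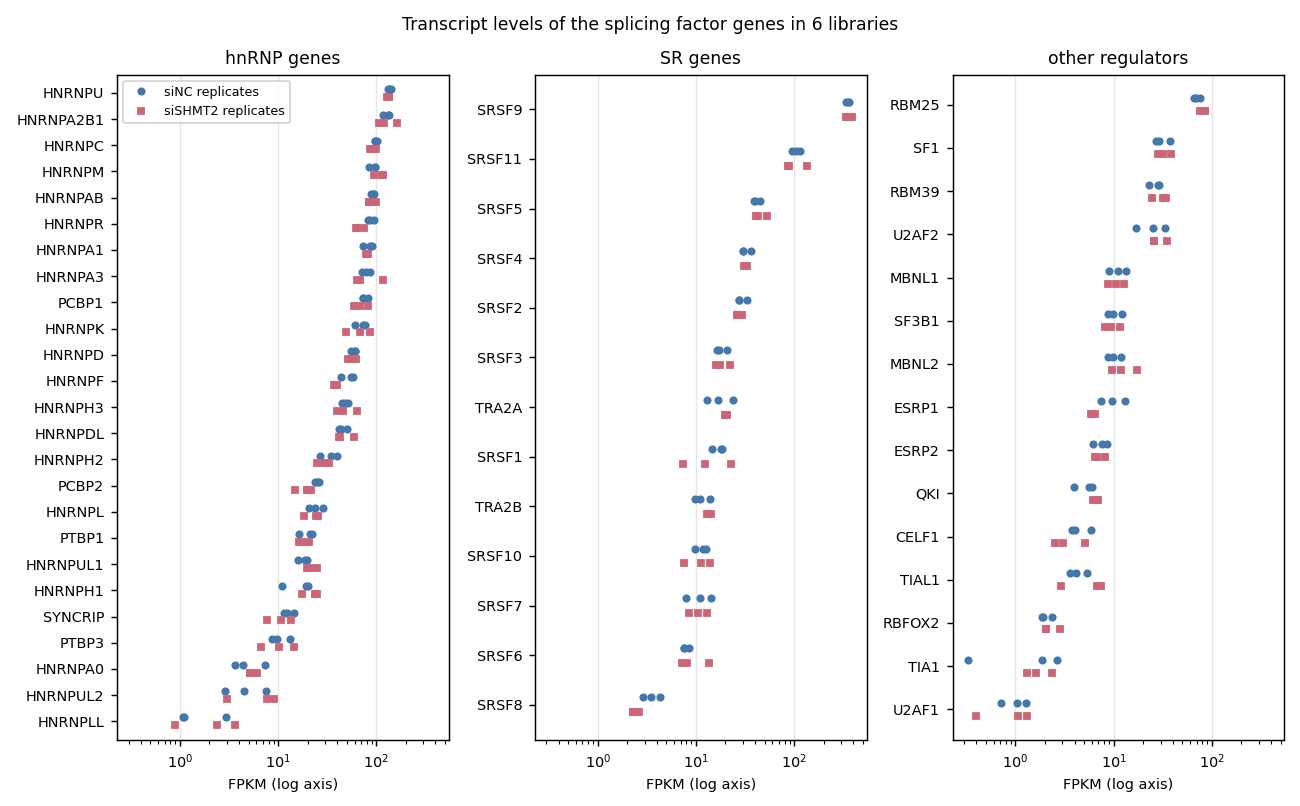
FPKM (log axis) of the 53 splicing factor genes, with a circle for each of the 3 siNC replicates and a square for each of the 3 siSHMT2 replicates, ordered by the siNC mean within each list. SRSF9 has the highest level, with 335 to 384 FPKM in the 6 libraries, and for most genes the circles and squares lie over each other.

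Between siSHMT2 and siNC the splicing factors as lists lay close to no difference. A few single members had an unadjusted p under 0.05 in edgeR's quasi-likelihood test, and none passed the adjusted threshold. The median log2 fold change was -0.013 over the 49 members and -0.001 over all genes tested. It was -0.04 for 24 hnRNP genes (9 above 0 and 15 below), 0.0026 for 12 SR genes (6 above and 6 below) and 0.15 for 13 other regulators (8 above and 5 below). A log2 fold change below 0 was found for 26 of the 49 members and for 50.2% of all genes tested. Without siSHMT2 replicate 3 the hnRNP median was -0.14, and without siNC replicate 2 that of the other regulators was 0.01. No member had an adjusted p under 0.05, as was the case for 0% of all genes tested by edgeR's quasi-likelihood test after Benjamini-Hochberg adjustment, and DESeq2 and limma also gave 0 members. An unadjusted p under 0.05 was found for 4 of the 49 members (8.16%), against 3.84% of all genes tested. Of these 4, 3 were lower in siSHMT2 (1.9% of all genes) and 1 was higher (1.94% of all genes). DESeq2 gave 3 such members. A fold change over 1.5 at an unadjusted p under 0.05 was found for 1 member, against 2.68% of all genes.

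Precision was high enough to bound the size of the difference in the deposited counts for many members. The bounds do not cover errors in how the reads were counted. The 95% interval of the fold change, not corrected for the number of genes, lay within 1.5-fold in both directions for 27 of 49 members (55.1%), against 25.8% of all genes tested. It did so for 15 of 24 hnRNP genes, 7 of 12 SR genes and 5 of 13 other regulators. The fitted fold change itself was under 1.1-fold for 25 members. The least certain members were RBFOX2 (SE 0.43, interval of the log2 fold change from -0.71 to 1.02), TIAL1 (SE 0.36) and HNRNPUL2 (SE 0.35), whose intervals held both no difference and a change of 1.5-fold.

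**Figure D2:**
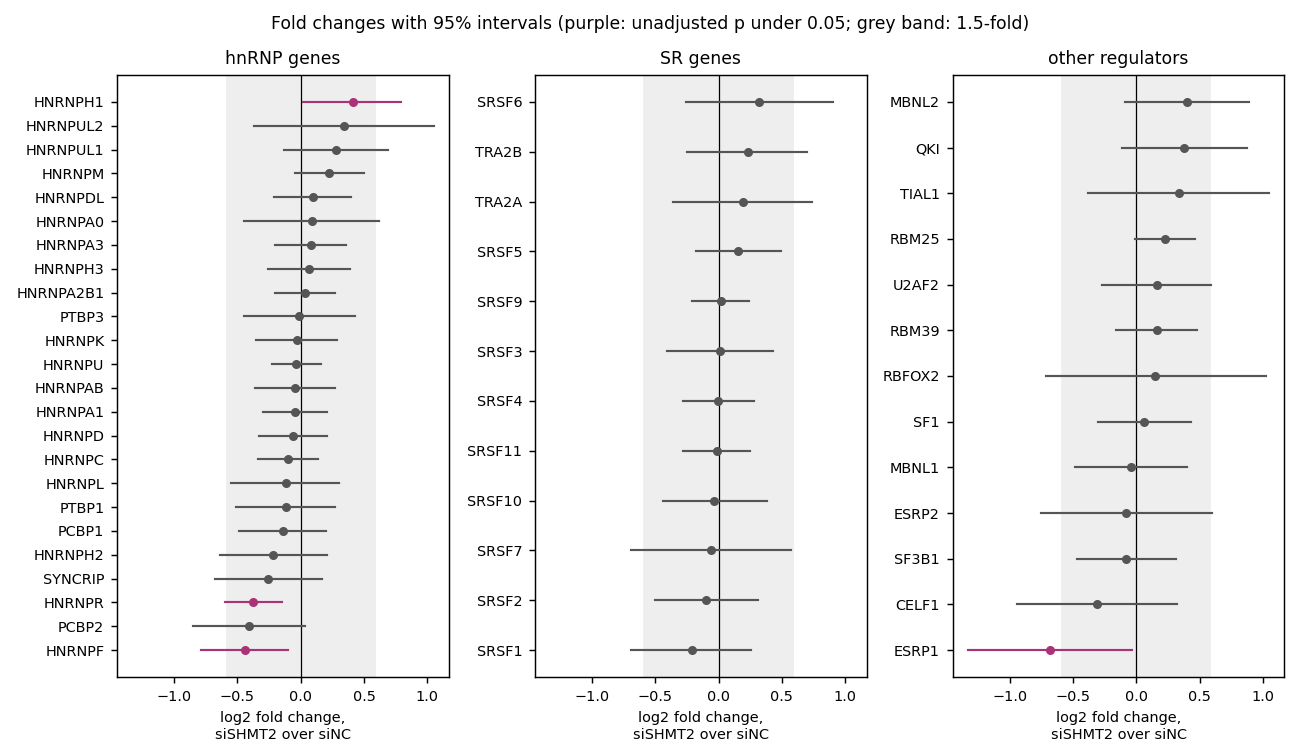
Log2 fold change of siSHMT2 over siNC for the 49 members with at least 60 counts, with 95% intervals from edgeR's quasi-likelihood fit (3 libraries per group). The intervals of 27 members lie within the grey band of 1.5-fold, and the 4 members drawn in purple, HNRNPF, HNRNPR, HNRNPH1 and ESRP1, have an unadjusted p under 0.05.

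HNRNPR, a hnRNP with RNA recognition motifs and an arginine- and glycine-rich tail, had the smallest p of the members. The gene (ENSG00000125944) lies on the minus strand of chromosome 1 of GRCh38 from 23303771 to 23344336. It had 595, 418 and 592 counts in siNC replicates 1 to 3 and 263, 394 and 474 in siSHMT2 replicates 1 to 3. As CPM, the count relative to the TMM-scaled total of the library, it had 741, 693 and 672 in siNC and 511, 514 and 594 in siSHMT2. All siSHMT2 values were below all siNC values, and siSHMT2 replicate 3 was the nearest to the siNC group. The 95% interval of the fold was from 0.658 to 0.902 of the siNC level, and the unadjusted p of 0.0018 was at rank 13 of the genes tested, by edgeR's quasi-likelihood test, with a Benjamini-Hochberg adjusted p of 0.93. The log2 fold change ranged from -0.46 to -0.33 over 15 alternatives, and it kept an unadjusted p under 0.05 in 13 of them.

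The study also measured HNRNPR by RT-qPCR, and the primers are shown here because they tell which part of the transcript that assay reads. Both lie in the same coding exon, so the product of 136 bases crosses no intron, and 9 of the 14 annotated transcripts of the gene contain both.
Forward primer: cctccagattactacggctatg
Reverse primer: ttcctcctcctcttcctcttac
The forward primer matches chr1:23310954-23310975 of GRCh38 on the minus strand, the strand of the gene, and the reverse primer matches chr1:23310840-23310861 on the plus strand.

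SYNCRIP, the closest paralogue of HNRNPR and a cytoplasmic as well as nuclear RNA binding protein, was much lower in level, with 12.8 ± 1.48 FPKM in siNC. It had 80, 52 and 74 counts in siNC libraries and 39, 43 and 75 in those of siSHMT2, and the groups overlapped because siSHMT2 replicate 3 lay within the siNC range. The log2 fold change was -0.26 (SE 0.21, interval -0.68 to 0.17; unadjusted p = 0.23, edgeR's quasi-likelihood test). Without siSHMT2 replicate 3 it was -0.48, with an unadjusted p of 0.046 and an adjusted p of 0.90 in the edgeR test. That was the only 1 of the 15 alternatives with an unadjusted p under 0.05, and the log2 fold change of SYNCRIP ranged from -0.48 to -0.07 over them. The ratio of HNRNPR to SYNCRIP counts was 7.83 ± 0.336 in siNC and 7.41 ± 1.53 in siSHMT2 (SD, n = 3), with overlapping groups.

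The F/H family binds G-rich RNA, and the fold changes of its members lay on both sides of 0. HNRNPF had 124, 79 and 142 counts in siNC and 56, 90 and 83 in siSHMT2. Its level was 52.1 ± 7.67 FPKM in siNC and 38.3 ± 1.48 FPKM in siSHMT2, with no overlap, and the log2 fold change was -0.44 (SE 0.17, interval -0.79 to -0.10; unadjusted p = 0.012 and adjusted p = 1.00, edgeR's quasi-likelihood test). HNRNPH1, which also autoregulates its own splicing, had 87, 40 and 99 counts in siNC and 52, 112 and 108 in siSHMT2. Its log2 fold change was 0.41 (SE 0.19, interval 0.02 to 0.79; unadjusted p = 0.040 and adjusted p = 1.00 in the same edgeR test), but the groups overlapped in CPM, since siNC replicates 1 and 3 lay above siSHMT2 replicate 1. The value of siNC replicate 2 was the lowest of the 6 libraries, and without it the log2 fold change was 0.23 and the unadjusted p 0.25 in the edgeR test. The intervals of the log2 fold change held 0 for HNRNPH2 (-0.22, SE 0.21, interval -0.64 to 0.21) and HNRNPH3 (0.07, SE 0.16, interval -0.26 to 0.39). The ratio of HNRNPH1 to HNRNPF counts, which does not depend on the scaling of a library, was 0.702, 0.506 and 0.697 in siNC and 0.929, 1.24 and 1.3 in siSHMT2, with no overlap.

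The A/B and C proteins package the bulk of nascent transcripts, and most of their genes had fold changes near 1. HNRNPA1, HNRNPA2B1, HNRNPA3, HNRNPAB, HNRNPC, HNRNPD and HNRNPDL had log2 fold changes between -0.10 and 0.10 with SEs of 0.12 to 0.16, and the 95% interval of each lay within 1.5-fold. HNRNPA0, the least abundant A/B-type gene, had a log2 fold change of 0.09 (SE 0.27) and an interval of the fold from 0.731 to 1.54. The sign for HNRNPA3 (0.08, SE 0.14) rests on siSHMT2 replicate 3, without which its log2 fold change was -0.25, and it was 0.24 without siSHMT2 replicate 2. HNRNPA2B1 had 738, 519 and 778 counts in siNC and 379, 663 and 893 in siSHMT2, a log2 fold change of 0.04 (SE 0.12) that was -0.15 without siSHMT2 replicate 3. The most abundant member, HNRNPU, had 1397, 1150 and 1655 counts in siNC and 939, 1356 and 1433 in siSHMT2, and its CPM of 1841.6 ± 90.1 and 1795.7 ± 27.9 (SD, n = 3) differed by a log2 fold change of -0.04 (SE 0.10, interval -0.23 to 0.16). HNRNPK, which binds C-rich RNA, had a log2 fold change of -0.03 (SE 0.16).

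PCBP2, a poly(C)-binding protein that also stabilizes mRNA, was lower in each siSHMT2 library. Its CPM was 79.7, 81.2 and 82.9 in siNC and 64.1, 73 and 47.6 in siSHMT2, and the log2 fold change of -0.41 (SE 0.22, interval -0.85 to 0.03) reached an unadjusted p of 0.07 in edgeR's quasi-likelihood test. The siNC values were close together and those of siSHMT2 were not, and without siSHMT2 replicate 3 the log2 fold change was -0.24. PCBP1 had a log2 fold change of -0.14 (SE 0.17). HNRNPM, which can compete with ESRP1 at shared RNA sites, had 203, 142 and 221 counts in siNC and 158, 197 and 242 in siSHMT2. Its CPM was higher in each siSHMT2 library, with 289 ± 28 against 246 ± 9.53 (SD, n = 3), but the log2 fold change of 0.22 (SE 0.14) had an unadjusted p of 0.11 in the edgeR test. The polypyrimidine tract binding proteins PTBP1 (-0.12, SE 0.19) and PTBP3 (-0.01, SE 0.22) had log2 fold changes within their error of 0.

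**Figure D3:**
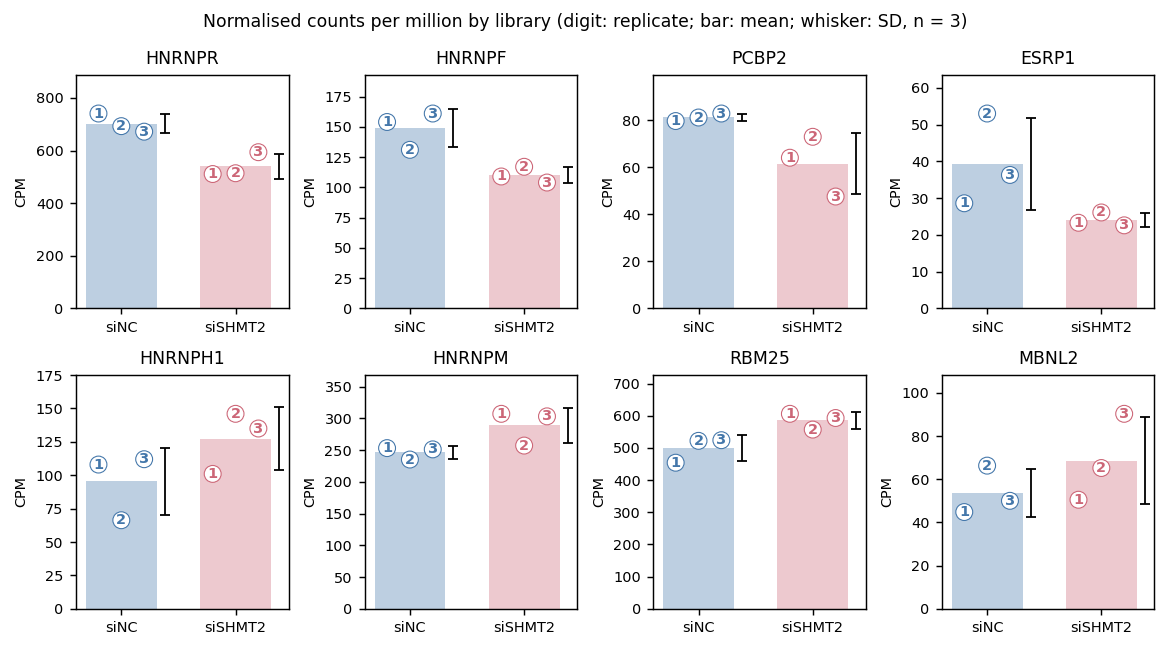
CPM after TMM normalization in each library for 8 members, with the replicate number in each circle, a bar for the mean and a whisker for the SD (n = 3). All siSHMT2 values lie below all siNC values for HNRNPR, HNRNPF, PCBP2 and ESRP1 and above them for HNRNPM and RBM25, whereas HNRNPH1 and MBNL2 overlap.

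No SR gene had an unadjusted p under 0.05 in edgeR's quasi-likelihood test, and none had groups that did not overlap in CPM among the 12 with enough counts. With 3.84% and 9.2% of all genes tested meeting these criteria, counts of 0 among 12 genes are near the background. SRSF9 had 504, 394 and 518 counts in siNC and 312, 468 and 534 in siSHMT2, and its log2 fold change of 0.02 (SE 0.11, interval -0.21 to 0.24) was among the most precise of the members. SRSF11 had 373, 253 and 370 counts in siNC and 190, 281 and 438 in siSHMT2, with a log2 fold change of -0.01 (SE 0.13). SRSF5, which binds exonic enhancers, had 111, 78 and 109 counts in siNC and 66, 108 and 130 in siSHMT2, with a log2 fold change of 0.15 (SE 0.17). The smallest p among the SR genes was that of SRSF6, with 30, 22 and 29 counts in siNC and 19, 26 and 48 in siSHMT2. Its log2 fold change was 0.32 (SE 0.29; unadjusted p = 0.28 in the edgeR test). In CPM siSHMT2 replicate 3 was above all siNC values of SRSF6 and the other siSHMT2 replicates lay within their range, and without replicate 3 the log2 fold change was -0.01. The paralogues TRA2A (0.19, SE 0.27) and TRA2B (0.23, SE 0.23), which bind GAA-rich enhancers, both had positive log2 fold changes smaller than or equal to their SE. TRA2B had 51, 29 and 44 counts in siNC and 31, 49 and 52 in siSHMT2. SRSF8, with too few counts for a fold, had 15, 10 and 11 counts in siNC and 6, 8 and 8 in siSHMT2, and its FPKM was 3.55 ± 0.696 in siNC and 2.39 ± 0.194 in siSHMT2, without overlap (p = 0.1 by a two-sided exact permutation test, the minimum for 3 libraries against 3).

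SRSF1 varied more between the siSHMT2 libraries than any other member. It had 79, 65 and 69 counts in siNC and 21, 54 and 98 in siSHMT2, a range of 1.53 in log2 CPM in siSHMT2 against 0.45 in siNC. In CPM siSHMT2 replicate 1 was the lowest of the 6 libraries and siSHMT2 replicate 3 the highest. The log2 fold change was -0.21 (SE 0.23) with all libraries, -0.71 without siSHMT2 replicate 3 (unadjusted p = 0.0049 and adjusted p = 0.67, edgeR's quasi-likelihood test) and 0.04 without siSHMT2 replicate 1, so its direction rests on single libraries.

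Among the other regulators, ESRP1 had the largest difference of the members. This epithelial splicing regulator had 23, 32 and 32 counts in siNC and 12, 20 and 18 in siSHMT2, and its FPKM was 7.46, 12.9 and 9.54 in siNC and 5.97, 6.48 and 5.86 in siSHMT2. The siSHMT2 libraries were close together and all below the siNC libraries, which spread more widely. The log2 fold change was -0.68 (SE 0.32, interval -1.33 to -0.03; unadjusted p = 0.041 and adjusted p = 1.00, edgeR's quasi-likelihood test). Without siNC replicate 2 it was -0.43, with an unadjusted p of 0.23 in the edgeR test, and without siNC replicate 1 it was -0.86. Its paralogue ESRP2, with 24, 14 and 23 counts in siNC and 15, 18 and 19 in siSHMT2, differed by a log2 fold change of -0.08 (SE 0.34). The difference between the paralogues was not tested, and the ratio of their counts overlapped between the groups (1.55 ± 0.677 and 0.953 ± 0.156, SD, n = 3).

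RBM25 had 365, 315 and 461 counts in siNC and 312, 427 and 473 in siSHMT2. Its CPM was 454, 522 and 524 in siNC and 606, 557 and 593 in siSHMT2, without overlap, and the log2 fold change of 0.23 (SE 0.12, interval -0.01 to 0.46) had an unadjusted p of 0.056 in edgeR's quasi-likelihood test. RBM39, a U2AF-related coactivator, had 136, 90 and 152 counts in siNC and 107, 153 and 118 in siSHMT2, with a log2 fold change of 0.16 (SE 0.16). SF1 had 85, 64 and 122 counts in siNC and 74, 95 and 84 in siSHMT2, with a log2 fold change of 0.06 (SE 0.18). MBNL2, one of the muscleblind proteins that control developmental exons, had 36, 40 and 44 counts in siNC and 26, 50 and 72 in siSHMT2. Its log2 fold change of 0.40 (SE 0.24; unadjusted p = 0.11, edgeR's quasi-likelihood test) was 0.15 without siSHMT2 replicate 3, the library with the highest value. It was 0.56 without siNC replicate 2 and 0.55 without siSHMT2 replicate 1, with unadjusted p of 0.043 and 0.031 in the same edgeR test. MBNL1 had a log2 fold change of -0.04 (SE 0.22), and the ratio of MBNL1 to MBNL2 counts was 1.97, 1.18 and 1.18 in siNC and 1.15, 1.12 and 0.931 in siSHMT2, without overlap but with siNC replicate 1 far above the rest. QKI (0.38, SE 0.24) had higher and CELF1 (-0.31, SE 0.31) lower fitted levels in siSHMT2, neither with an unadjusted p under 0.05 in the edgeR test. The core factors U2AF2 (0.16, SE 0.21) and SF3B1 (-0.08, SE 0.19) had log2 fold changes within their error of 0.

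The replicates gave 6 of 49 members (12.2%) in which the CPM of the groups did not overlap, against 9.2% of all genes tested. ESRP1, HNRNPF, HNRNPR and PCBP2 were lower in siSHMT2 (4 members, against 4.55% of all genes in that direction), and HNRNPM and RBM25 were higher (2 members, against 4.65%). In FPKM, which has no TMM factor, HNRNPM overlapped and HNRNPUL1 and QKI, both higher in siSHMT2, did not. The count ratio did not overlap for 2 of 10 paralogue pairs, HNRNPH1 to HNRNPF and MBNL1 to MBNL2. The ratios are given as a description, and the share of single genes without overlap was 9.2%, as above.

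**Figure D4:**
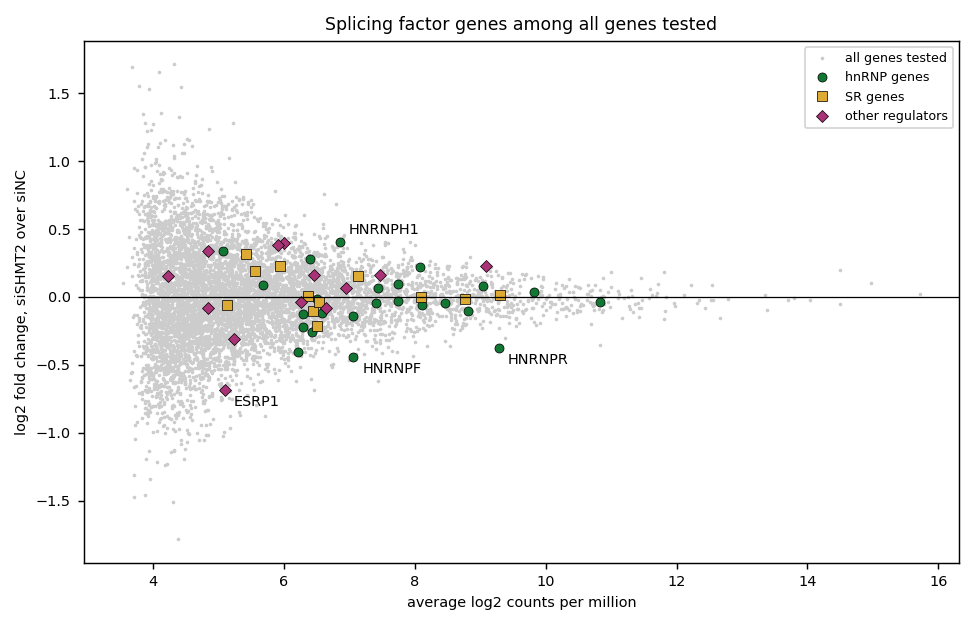
Log2 fold change of siSHMT2 over siNC against the average log2 CPM for the 7207 genes tested (grey) and the 49 members (coloured by list). The members with an unadjusted p under 0.05 are named, and of these HNRNPR is the most abundant and ESRP1 the least.

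Summed over a list, the hnRNP genes held 704, 635 and 706 of every 100000 counts in siNC and 628, 610 and 743 in siSHMT2, with overlap. The SR genes held 200, 188 and 187 in siNC and 177, 178 and 220 in siSHMT2, again with overlap. The other regulators held 127, 117 and 129 in siNC and 142, 130 and 138 in siSHMT2, without overlap. RBM25, the most abundant of them with 2353 counts, did not overlap itself, so the sum does not show a rise across the list. Among single genes tested, 9.2% had groups that did not overlap. The highest sum of the hnRNP genes and of the SR genes was in siSHMT2 replicate 3.

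That library stood out across the members. Among the 6 libraries, siSHMT2 replicate 3 had the highest CPM for 15 of 49 members (30.6%), against 17.2% of all genes tested, and for 7 of 12 SR genes. By contrast siSHMT2 replicate 2 was highest for 2 members (4.08%), against 15.3% of all genes. Among the other regulators siSHMT2 replicate 1 was highest for 6 of 13. Members spread more within siSHMT2 than within siNC, with a median SD of log2 CPM of 0.23 against 0.16, whereas over all genes tested the medians were 0.28 and 0.26. The larger SD was in siSHMT2 for 28 of the 49 members and for 3860 of the 7207 genes, which are similar shares. After SRSF1, the widest ranges of log2 CPM within siSHMT2 were those of HNRNPUL2 (1.38) and TIAL1 (1.18), both with few counts.

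**Figure D5:**
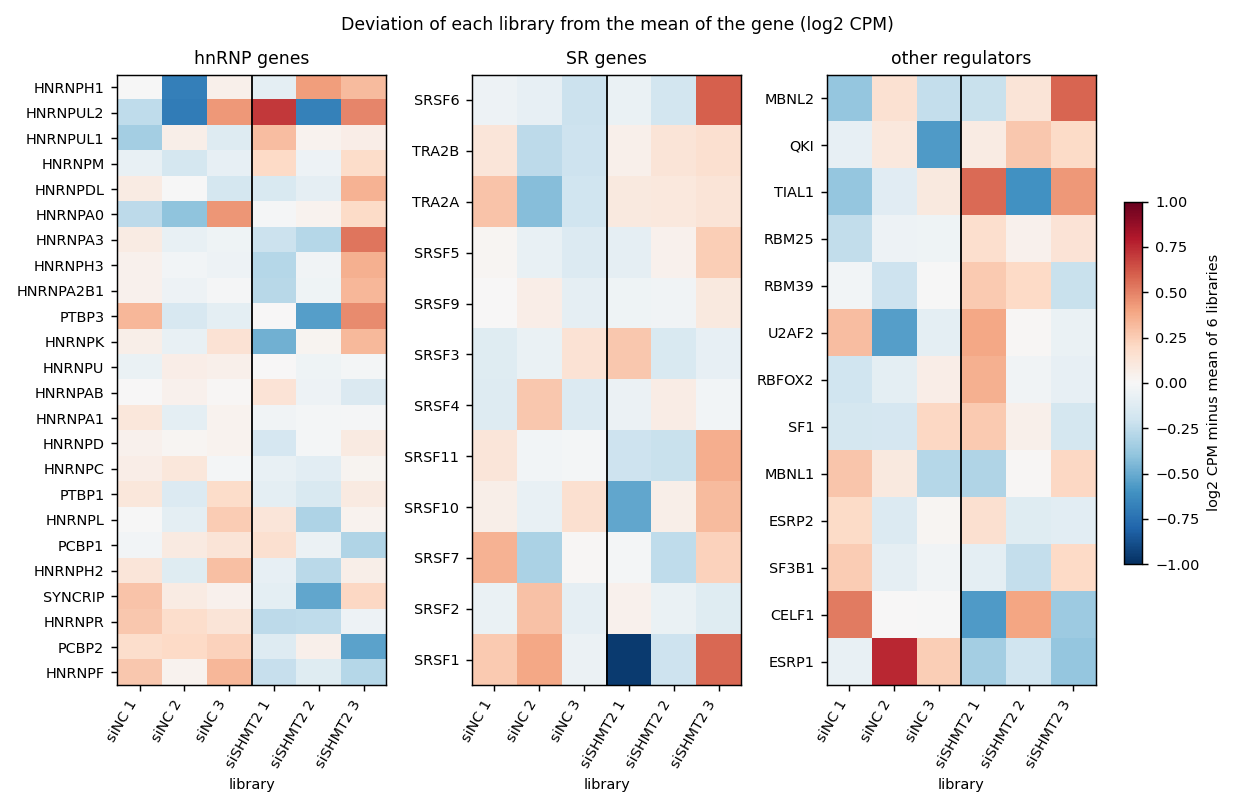
Difference of each library from the mean of the 6 libraries in log2 CPM for the 49 members, ordered by fold change within each list, with a black line between siNC and siSHMT2. The column of siSHMT2 replicate 3 holds the highest value for 15 members, and SRSF1 ranges from the lowest value in siSHMT2 replicate 1 to the highest in siSHMT2 replicate 3.

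Other genes of the splicing machinery had values close to those of the members. Of 31 genes of the snRNP core, the proteins that form and remodel the spliceosomal ribonucleoproteins, 27 had 60 or more counts. Their median log2 fold change was -0.03, with 12 above 0 and 15 below. No such gene had an unadjusted p under 0.05 in edgeR's quasi-likelihood test, and 3 had groups that did not overlap (11.1%, against 9.2% of all genes tested). The SRPK and CLK kinases, which phosphorylate SR proteins, and their importer TNPO3 made up 7 genes, of which 5 had enough counts. The median log2 fold change of these was 0.16, and none had an unadjusted p under 0.05 in the edgeR test, against 3.84% of all genes tested. Opposite-strand genes held more counts than SRPK1 (9943 for LHFPL5 against 127), SRPK2 (656 for KMT2E against 285) and PRPF31 (575 for PRPF31-AS1 against 153). For the other genes of both lists they held fewer or there were none. The values of SRPK1, SRPK2 and PRPF31 are less certain for this reason, as described next for the members.

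Genes on the opposite strand bear on how the counts of some members can be read. The libraries were strand-specific, but the strand setting of the counting is not given in the sources used here. By GENCODE release 44, 19 members share exonic bases with a gene on the opposite strand and 34 do not. HNRNPR, HNRNPF, HNRNPH1 and ESRP1 are among the 34, but they are not exempt, since a strand setting bears on the counts of every gene. The counts per library were also far below the number of sequenced reads that the study reports per sample, and the reason was not tested. For 8 members the opposite genes held more counts than the member. PCBP1 had 568 counts over the 6 libraries and its antisense gene PCBP1-AS1, which covers 73.2% of the exonic bases of PCBP1, had 25679. HNRNPA3 had 2307 counts and NFE2L2, a stress-response transcription factor gene that covers 53.6% of its exonic bases, had 57622. SRSF9 had 2730 counts and GATC, covering 43.6%, had 7289. PCBP2 had 313 counts and MAP3K12, covering 18.8%, had 1714, with a log2 fold change of 0.11 (SE 0.12) for MAP3K12. For HNRNPU, with 7930 counts, the opposite genes COX20 and ENSG00000273175 had 13837 together and cover 19% of its exonic bases. ESRP2 had 113 counts and NFATC3 1556, SRSF1 had 386 counts and ENSG00000279069 1563, and SRSF2 had 367 counts and MFSD11 1290, so the values and ratios given above for ESRP2 and SRSF1 carry the same uncertainty. How far reads of the opposite genes entered the counts of these members was not tested. Nor was it tested how far reads of these members were counted on the opposite genes. The median log2 fold change was -0.04 for the 19 members with an opposite gene and 0.0026 for the 30 others with enough counts.

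Pseudogenes named after a member hold few counts for most members. Copies with other names were not counted, and how reads matching several genes were treated is not given in the sources used here. HNRNPA1 has 74 pseudogenes named after it, which held 248 counts or 16.2% of those of HNRNPA1, so its values are less certain. The share was 2.64% for HNRNPA3, 1.54% for HNRNPC and 0.0731% for HNRNPR. U2AF1 has a near-identical copy in GRCh38, U2AF1L5, for which no value was analysed here, so its low level is uncertain.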

How the data were processed

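Gene counts and FPKM values of 6 RNA-seq libraries were used as deposited. Per the labels and the methods, the authors checked the reads with FastQC 0.11.9, trimmed them with fastp 0.23.4 and aligned them to GRCh38 with HISAT2 2.2.1. How reads were counted on genes, with which strand setting and which annotation, is not given in the sources used here. The deposited counts are unnormalized whole numbers. The deposited FPKM values were recomputed from the counts, the listed lengths and the library totals with a largest relative difference of 2.3e-14. For 91 genes without a length the FPKM could not be recomputed. They held 11.8% to 13.1% of the counts.

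Expression was compared in R 4.3.3 with edgeR 4.0.16 (TMM, filterByExpr, quasi-likelihood test, two-sided, no replicate block), fitted on all 7207 genes that passed the filter with Benjamini-Hochberg adjustment over them. The SE is the log2 fold change divided by the square root of F. Fold changes are given for members with at least 60 counts over the 6 libraries. The CPM values used a prior count of 2 on the log2 scale for comparisons of libraries. A member has groups that do not overlap where all 3 values of a group lie above all 3 of the other. For single genes, an exact permutation test (two-sided) was run on FPKM. Positions, exons and pseudogenes came from GENCODE release 44.

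The members and lists were chosen with earlier results of these data known, so no test over a list was run. Full values are given for SHMT2, HNRNPR, members with an unadjusted p under 0.05, and the 3 members of each list with the smallest p and with the highest FPKM. PCBP2, SRSF1, SYNCRIP, SRSF8 and ESRP2 were added after their values were seen. Alternatives were DESeq2 1.42.0, RLE factors, library size only, no filter, a minimum of 10 counts in each library, log2 FPKM (pseudocount 1 or 0.1) in limma 3.58.1, a replicate block, and fits without each library. Depth was 533689 to 890574 counts per library, with a median count of 25 for the genes tested, and the chi-square per degree of freedom between replicates was 1.78 to 2.63, so none were taken as copies of a library. Figures were drawn with matplotlib 3.10.9.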

Additional observations from a re-analysis of the deposited data

How the results depend on the processing

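No member had an adjusted p under 0.05 in any of the 15 alternatives, and the smallest was 0.43, that of HNRNPR with the replicate block (edgeR's quasi-likelihood test, Benjamini-Hochberg adjusted). The number of members with an unadjusted p under 0.05, 4 in the values reported, was 2 with limma on log2 FPKM at a pseudocount of 0.1, 1 with limma on unfiltered FPKM, 5 with RLE size factors, with at least 10 counts in every library and with the replicate block, and 2 to 4 with a library left out. The number that also had a fold change over 1.5, 1 in the values reported, was 0 with DESeq2 and 0 to 1 with a library left out, and 0 without siNC replicate 2, siNC replicate 3 or siSHMT2 replicate 1. The number of members with groups that do not overlap, 6 of 49, was 9 to 14 with a library left out, when fewer values have to be in order and 18.5% to 21.2% of all genes qualify. The hnRNP median ranged from -0.14 to -0.018 and that of the other regulators from 0.0084 to 0.19 with a library left out. The sign was the same in every alternative for 24 of the 49 members and turned in at least 1 for the other 25, whose largest log2 fold change was 0.32 in size. Among the genes given with full values it turned with a library left out for SF1 (-0.0027 without siNC replicate 1, -0.038 without siSHMT2 replicate 1; range -0.038 to 0.21), SRSF11 (0.041 without siNC replicate 1, 0.075 without siSHMT2 replicate 1, 0.097 without siSHMT2 replicate 2; range -0.24 to 0.097), SRSF9 (-0.026 without siNC replicate 3, -0.035 without siSHMT2 replicate 3; range -0.035 to 0.054), and, without siSHMT2 replicate 3, HNRNPA2B1 (range -0.15 to 0.16) and SRSF6 (range -0.013 to 0.49). It also turned for SRSF1 (0.045 without siSHMT2 replicate 1) and ESRP2 (0.025 without siNC replicate 1). The causes were not tested. HNRNPF kept its unadjusted p under 0.05 in 13 alternatives, ESRP1 in 9 and HNRNPH1 in 7. No scaling moved the median of all genes by over 0.1 on the log2 scale.

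Whether libraries with the same replicate number were processed together is not given in the sources used here. The deviations of libraries with the same number correlated at -0.0155, 0.0485 and -0.0119. At this depth, where counting noise is large, such values cannot decide whether the libraries were paired. The replicate block gave 5 members with an unadjusted p under 0.05, with RBM25 added, and 6 with groups that do not overlap. It changed no call at an adjusted p of 0.05. Depth limits the whole comparison, with a median count of 25 for the genes tested. The targeted gene SHMT2 itself had 79 counts and an adjusted p of 0.93 by edgeR's quasi-likelihood test. The lack of adjusted calls therefore does not show that the members were unchanged. For the 4 members under 60 counts no fold was given.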
